A study of Clytia hemisphaerica and Astroides calycularis and Pocillopora acuta with 16 samples.

Results

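A pair of ortholog trios of genes with a pectin acetylesterase domain was followed along the oral-aboral axis of the planula, the ciliated larva of cnidarians. The genes were taken by identifier, 1 per species and trio, which gave 6 of the 67007 gene models in the count files of 3 species. The first trio, called PAE-1 here, held XLOC_017925 of Clytia hemisphaerica, STRG.16525 of Astroides calycularis and XP_027051607 of Pocillopora acuta, and was chosen by its mean level, higher at the oral end in all 3 species. The second trio, called PAE-2 here, held XLOC_044658, STRG.35390 and XP_027054066 in the same order of species, and was chosen by the opposite sign of the same difference in Clytia, where it was aboral, and in both corals, where it was oral. The aboral against oral differences of these genes are therefore given as a description, without a test. All 6 genes passed the filter on low counts, as did 54017 of the 67007 gene models.

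RNA was sequenced from pools of manually bisected planulae, in 16 libraries that fell into 8 groups of 2. Aboral ends, oral ends and uncut larvae were sequenced for Clytia, a hydrozoan kept as the laboratory Z strain, and for Astroides, a coral whose larvae were collected as wild colonies released them. Aboral and oral ends only were sequenced for Pocillopora, an aquarium-propagated coral whose larvae carry algal symbionts, from the parent colonies C5 and C3, which the study describes as phenotypes of the same genotype. Each library was a pool of larvae or larval ends, each of which holds a mixture of cell types. The pools differed in size between species. For Pocillopora the study pooled only 2 to 8 ends per library, with fewer oral than aboral ends in each replicate. The pools of Clytia and Astroides were larger. Levels in Pocillopora thus rest on few larvae. The labels name no mutation and no treatment other than the cut.

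Pectin acetylesterases were first described as plant and bacterial enzymes that remove acetyl groups from pectin. The animal enzyme Notum, known from flies and vertebrates, has the same kind of domain and removes the lipid group from secreted Wnt proteins, which stops them from signalling. In many animals the gene for Notum is itself switched on by Wnt signalling, and in cnidarian embryos and larvae Wnt ligands are typically expressed at the oral pole. Whether any of the 6 genes encodes Notum was not given in the sources used here.

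Total counts per library were between 20256336 and 31043438, and levels are given as CPM, a gene's count scaled by the total count of its library. Gene lengths were not used, so levels are compared between libraries of a species and never between genes or species. The labels of the ends were set beside a forkhead and a T-box trio. The study listed these as aboral and oral, respectively, from these same libraries, so their direction is a description and no independent check. In the forkhead trio (XLOC_014597, STRG.21847 and XP_027055233) the mean level was 136 CPM in aboral and 9.28 CPM in oral ends of Clytia. It was 67.0 and 3.52 CPM in the ends of Astroides, and 21.2 and 0.667 CPM in those of Pocillopora. The study gives other identifiers for FoxQ2a of the corals, so this trio is not called FoxQ2a here. The mean level of an oral T-box gene was 10.2 CPM in aboral and 107 CPM in oral ends of Clytia, 0.297 and 26.2 CPM in those of Astroides, and 7.89 and 45.2 CPM in those of Pocillopora.

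In the PAE-1 trio the oral level was about 4 times the aboral level in Clytia, somewhat more in Astroides and far more in Pocillopora. The Clytia gene XLOC_017925 was at 6.39 and 5.61 CPM in the aboral libraries, 25.2 and 20.99 CPM in the oral libraries and 15.3 and 12.5 CPM in the uncut libraries, from counts between 169 and 783. Both oral libraries lay above both uncut libraries, and these above both aboral libraries. The means were 6.0 ± 0.552 CPM in aboral and 23.1 ± 2.99 CPM in oral ends (SD, n = 2 each). The aboral minus oral log2 fold change was -1.90 ± 0.15 (SE), an oral level 3.73-fold the aboral level. It was larger in size than that of 95.7% of the genes tested in Clytia, but the gene was chosen by this contrast.

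The Astroides gene STRG.16525 was at 36.5 and 41.9 CPM in the aboral libraries, 172 and 196 CPM in the oral libraries and 113 and 115 CPM in the uncut libraries. Here too the 3 groups did not overlap, with the uncut larvae in the middle, an order whose share over all genes was not counted. The means were 39.2 ± 3.82 CPM in aboral and 184 ± 16.9 CPM in oral ends (SD, n = 2 each), and the log2 fold change was -2.20 ± 0.13 (SE), a 4.59-fold higher oral level. Within replicates 1 and 2 the oral level was 4.71 and 4.68 times the aboral level, so that the ratio varied less between replicates than either level did.

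The Pocillopora gene XP_027051607 was at 3.98 CPM in aboral ends of colony C5 and 3.66 CPM in those of colony C3. Its oral level was 52.6 CPM in colony C5 and 75.1 CPM in colony C3. Both oral libraries lay far above both aboral libraries, with the lower oral level in colony C5. The log2 fold change was -4.03 ± 0.24 (SE), an oral level 16.3-fold the aboral level. It exceeded in size that of 99.4% of the genes tested in Pocillopora, but this gene too was chosen by this contrast. The oral over aboral ratio was 13.2 in colony C5 and 20.5 in colony C3, from pools of few ends.

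**Figure D1:**
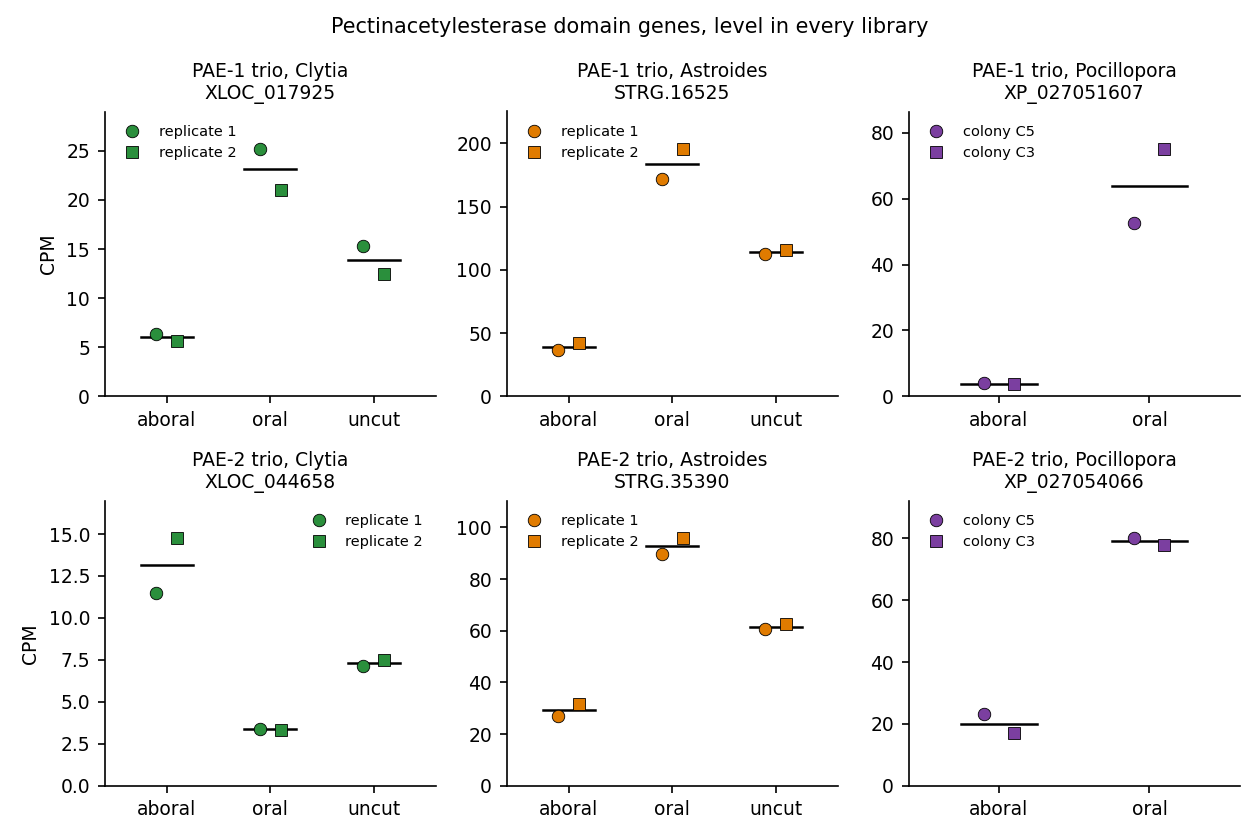
Level of each gene in every library, in CPM on a linear axis that starts at 0 and differs between panels, with points for single libraries and a line at the mean of each group of 2. PAE-1 is higher at the oral end in all 3 species, while PAE-2 is at 13.1 CPM in aboral and 3.36 CPM in oral ends of Clytia and higher at the oral end in both corals.

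In the PAE-2 trio the aboral level was about 4 times the oral level in Clytia, whereas in both corals the oral level was 3 to 4 times the aboral level. The Clytia gene XLOC_044658 was at 11.5 and 14.8 CPM in the aboral libraries, 3.38 and 3.33 CPM in the oral libraries and 7.13 and 7.50 CPM in the uncut libraries. Both aboral libraries were above both uncut libraries, and both oral libraries were below them. The means were 13.1 ± 2.30 CPM in aboral and 3.36 ± 0.0361 CPM in oral ends (SD, n = 2 each), from only 103 and 105 counts in the oral libraries. The log2 fold change was 2.01 ± 0.16 (SE), a 4.04-fold higher aboral level, and the ratio was 3.40 in replicate 1 and 4.43 in replicate 2.

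In Astroides, STRG.35390 was at 27.2 and 31.6 CPM in the aboral libraries, 89.6 and 96.0 CPM in the oral libraries and 60.7 and 62.6 CPM in the uncut libraries. The groups were again separate and the uncut larvae in the middle. The means were 29.4 ± 3.12 CPM in aboral and 92.8 ± 4.51 CPM in oral ends (SD, n = 2 each), with a log2 fold change of -1.63 ± 0.13 (SE) and a 3.09-fold higher oral level.

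In Pocillopora, XP_027054066 was at 23.0 CPM in aboral ends of colony C5 and 16.9 CPM in those of colony C3, and at 80.2 CPM in oral ends of C5 and 77.9 CPM in those of C3. Both oral libraries lay above both aboral libraries, and the colonies differed less at the oral than at the aboral end. The log2 fold change was -1.99 ± 0.17 (SE), a 3.96-fold higher oral level, with an oral over aboral ratio of 3.48 in colony C5 and 4.59 in colony C3.

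Across both trios, 5 genes had a higher oral and 1 a higher aboral mean, and the aboral and oral libraries of all 6 did not overlap. Such a separation of 2 libraries from 2 was common, at 67.3% of the genes tested in Clytia, 43.6% in Astroides and 37.4% in Pocillopora. The share of genes whose uncut libraries also lay apart from both ends was not counted, so nothing is read from that order. By edgeR's quasi-likelihood test with Benjamini-Hochberg adjustment, the share of all genes called higher at the aboral end was 18.4% in Clytia, 3.47% in Astroides and 3.82% in Pocillopora, and the share called higher at the oral end was 14.8%, 3.51% and 4.22% in the same order of species. Nothing is read from these shares for the 6 genes, since the same contrast chose them. In such bulk samples, fewer cells of a type and less RNA per cell cannot be told apart.

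Some markers of the cell classes named in the study also differed between the ends. For Clytia only neurosecretory markers were used, and for the corals none of the classes that the study describes as aboral. These calls therefore do not show how cell classes as a whole divide between the ends. In Clytia the summed level of 18 neurosecretory markers, all called aboral, was 5010 to 5700 CPM in aboral, 33.1 to 38.0 CPM in oral and 2120 to 2610 CPM in uncut libraries. In Astroides both of 2 markers of digestive filaments, the gland-bearing edges of the gut folds, were called oral, with sums of 20.3 to 20.5 CPM in aboral, 71.5 to 89.2 CPM in oral and 46.0 to 47.2 CPM in uncut libraries. In Pocillopora 1 of 2 such markers was called oral, with sums of 96.4 to 106 CPM in aboral and 189 to 196 CPM in oral libraries. All 3 gastroderm markers were called oral in Pocillopora, with sums of 1728 to 2218 CPM in aboral and 4219 to 4346 CPM in oral libraries, whereas in Astroides none of 3 passed the edgeR test (0 called), with sums of 1016 to 1112 CPM in aboral and 1331 to 1446 CPM in oral libraries. Of the epidermal, specialized epidermis, secretory and cnidocyte markers of the corals, 1 of 3 epidermal markers was called oral and 1 of 3 cnidocyte markers aboral in Astroides, and edgeR called 0 of the others in either species. None of these markers was at 0 in a group. The part of these cell classes in the levels of the pectin acetylesterase genes was not tested.

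The ratio of the PAE-2 to the PAE-1 gene within a library does not depend on the library total. It is a ratio of counts, not per length, so only its change between libraries of 1 species is described. In Clytia it was 1.80 and 2.63 in aboral, 0.134 and 0.159 in oral and 0.467 and 0.601 in uncut libraries. The ratio thus changed most between the ends in Clytia, by 3.90 on the log2 scale (aboral minus oral), where the genes ran in opposite directions. Such a change restates the aboral against oral differences by which the trios were chosen, so it is no further evidence. In Astroides it was 0.745 and 0.754 in aboral, 0.521 and 0.490 in oral and 0.539 and 0.542 in uncut libraries, a change of 0.57. In Pocillopora it was 5.78 in aboral ends of colony C5 and 4.63 in those of C3, and 1.52 in oral ends of C5 and 1.04 in those of C3, a change of 2.04. In both corals the ratio was higher in the aboral libraries although both genes were more abundant at the oral end, as the oral excess of PAE-1 was larger than that of PAE-2.

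**Figure D2:**
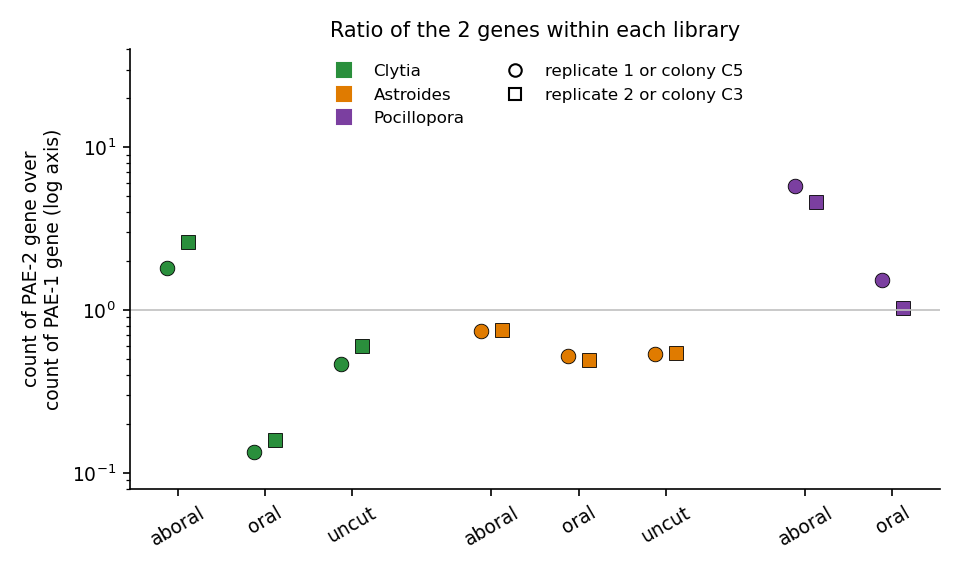
Count of the PAE-2 gene divided by the count of the PAE-1 gene in each library, on a log axis, with 1 point per library and the line at equal counts. The aboral libraries lie above the oral libraries in all 3 species. The gap is widest in Clytia, at 1.80 and 2.63 against 0.134 and 0.159, where the trios were chosen to run in opposite directions.

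The uncut libraries of Clytia and Astroides did not enter the choice of the genes, so a comparison with them could be tested. An equal mixture of RNA from both ends would lie midway between them. On a CPM scale that runs from 0 at the oral mean to 1 at the aboral mean, uncut larvae stood at 0.539 for XLOC_017925, 0.482 for STRG.16525, 0.405 for XLOC_044658 and 0.491 for STRG.35390. The uncut mean was 0.954 times the mean of the ends for XLOC_017925, 1.02 times for STRG.16525, 0.887 times for XLOC_044658 and 1.01 times for STRG.35390.

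On the log2 scale of the edgeR fit, the contrast was the uncut log2 level minus the average of the log2 levels of both ends. By edgeR's quasi-likelihood test with adjustment over all genes of the species, 0 of these 4 genes were called, beside a background of 1.19% of genes in Clytia and 0.221% in Astroides. One gene, STRG.16525, had an unadjusted p under 0.05, and DESeq2 also called 0. With the replicate number as a block, edgeR called more genes, 343 higher and 99 lower in uncut larvae of Clytia against 161 and 25 without it, and 165 higher and 35 lower in Astroides against 44 and 3, and still 0 of these 4 genes (adjusted p = 0.0877 to 0.742). Without the block, the difference was 0.24 ± 0.12 for XLOC_017925 (SE; 95% interval -0.04 to 0.52; adjusted p = 0.999) and 0.14 ± 0.14 for XLOC_044658 (-0.17 to 0.45; adjusted p = 0.999) in Clytia. It was 0.43 ± 0.11 for STRG.16525 (0.17 to 0.69; adjusted p = 0.421) and 0.24 ± 0.11 for STRG.35390 (-0.01 to 0.50; adjusted p = 0.841) in Astroides. All 4 values were positive, and the mean of log2 levels lies below the log2 of the mean for any gene whose ends differ, here by 0.31, 0.39, 0.31 and 0.23 for XLOC_017925, STRG.16525, XLOC_044658 and STRG.35390. Against the log2 of the mean of the ends, the uncut level of these genes differed by -0.07, 0.03, -0.17 and 0.01. Each group had 2 libraries, and p-values cover only the spread between these samples.

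The parent colonies of Pocillopora gave a further comparison that was not used to choose the genes. With the end of the larva in the edgeR fit, the colony C5 minus C3 log2 difference was -0.36 ± 0.22 for XP_027051607 (SE; 95% interval -0.91 to 0.19; adjusted p = 0.288) and 0.13 ± 0.17 for XP_027054066 (-0.29 to 0.56; adjusted p = 0.605). Neither gene was called by edgeR or DESeq2 or had an unadjusted p under 0.05 in edgeR, beside 19.2% of all genes called by edgeR. By end, the level of XP_027051607 in C5 was 1.09 times that in C3 aborally and 0.7002 times orally, and the level of XP_027054066 in C5 was 1.36 times that in C3 aborally and 1.03 times orally. When 1 library was left out, the colony difference rested on the other end alone. From the oral ends it was -0.66 for XP_027051607 and -0.10 for XP_027054066. From the aboral ends it was 0.06 and 0.38, so the sign of both differed between the ends. These values use the scaling factors of the fit, which the CPM ratios leave out, so the oral sign of XP_027054066 differs from that of its ratio. Each colony was 1 parent, and its pools held few larval ends. Without residual replicates per colony and end, the difference of ends between colonies could not be tested.

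To place the trios among other genes, they were set beside the 1 to 1 ortholog trios that could be assembled from the study's lists of enriched genes. There were 141 such trios, with all 3 genes tested in 124. They were listed because at least 1 gene of each was enriched at an end in these libraries, so their counts describe that list and no wider set. By sign alone, 42 of the 124 trios were aboral and 20 oral in all 3 species. The edgeR test called 12 trios aboral and 11 trios oral in all 3 species, and PAE-1 was among the 11 by its choice. Ordered by the smallest of the 3 log2 fold changes in size, PAE-1 was number 4 of the 11, at 1.90, behind a Wnt ligand, a T-box gene and an unannotated gene (XLOC_001468 in Clytia).

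PAE-2 was the 1 trio called aboral in Clytia and oral in both corals, the pattern for which it was chosen. By sign alone 15 of the 124 trios had that pattern, and 6 the opposite one. The 1 trio called oral in Clytia and aboral in both corals encoded a protein with an F5/8 type C domain. Its Clytia gene XLOC_031271 was at 0.606 CPM in aboral and 1.24 CPM in oral ends, a log2 fold change of -0.98 (edgeR adjusted p = 0.0258). Its coral genes were at 22.0 CPM in aboral and 0.0629 CPM in oral ends for STRG.11002 and at 2.02 and 0.0247 CPM for XP_027051554, from a handful of oral counts, so no fold is given. The corals ran the same way in 34 of the 36 trios called in both. The edgeR calls in Pocillopora were made with the parent colony in the fit. Without it edgeR called 0 genes at either end, against 837 aboral and 750 oral genes at an unadjusted p under 0.05, while the log2 fold changes of XP_027051607 and XP_027054066 were -4.06 and -1.98. DESeq2 with the colony called 809 aboral and 858 oral genes.

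**Figure D3:**
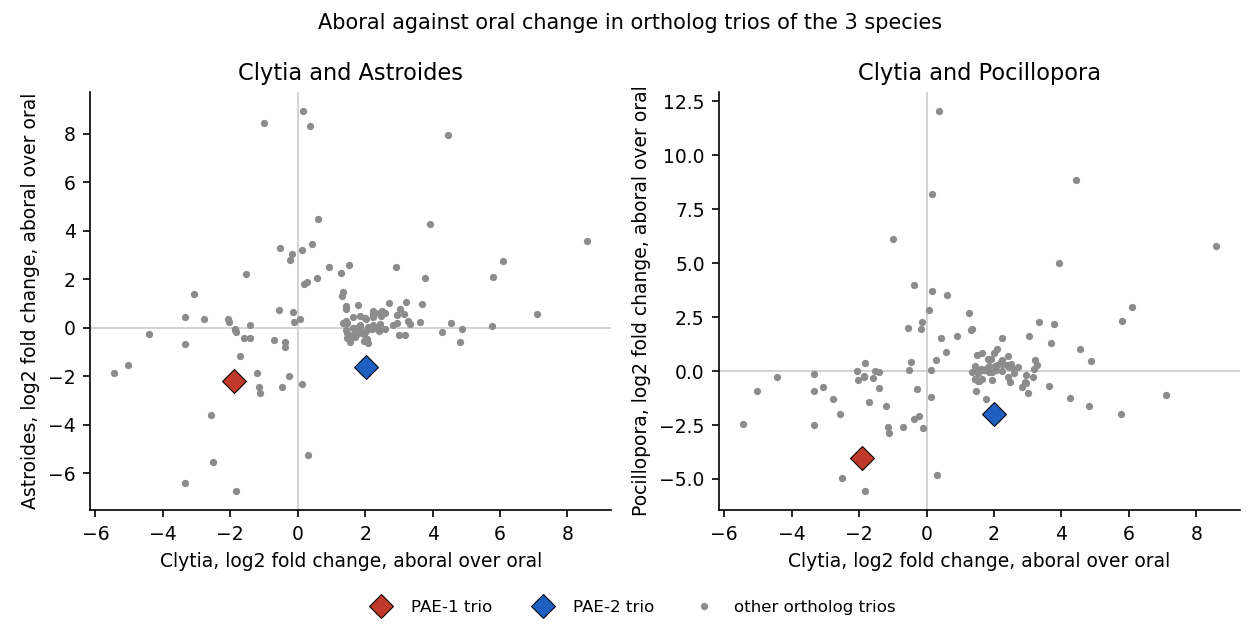
Aboral over oral log2 fold change of the 124 tested ortholog trios in Clytia (horizontal axes) and in Astroides or Pocillopora (vertical axes), where positive values are higher at the aboral end. PAE-1 lies at negative values on all axes, and PAE-2 at 2.01 in Clytia, -1.63 in Astroides and -1.99 in Pocillopora.

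The trios with the most similar pattern were found by the Euclidean distance between the 3 log2 fold changes, over the 58 trios with at least 10 CPM in every species. This minimum was set for the candidates alone, and PAE-2 itself is below it, as the mean of its aboral and oral levels in Clytia (13.1 and 3.36 CPM) is under 10 CPM. Nearest to PAE-1, at a distance of 1.47, was a LIM homeodomain transcription factor (XLOC_007074, STRG.30225 and XP_027056931), with log2 fold changes of -1.11 in Clytia, -2.69 in Astroides and -2.88 in Pocillopora. Next came a gene with a ZNRF-3 ectodomain at 1.63 and a forkhead transcription factor (XLOC_044586, STRG.42687 and XP_027055756) at 2.51. The forkhead gene changed by -1.19, -1.86 and -1.64 in the same order of species. ZNRF3, in vertebrates, is a membrane ubiquitin ligase that removes Frizzled receptors from the cell surface.

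The trio nearest to PAE-2 lay farther off, at 1.79. It encoded an astacin peptidase with a kringle domain (MSTRG.1909, STRG.42859 and XP_027043895), with log2 fold changes of 1.77 in Clytia, 0.01 in Astroides and -1.30 in Pocillopora. A Nanos trio (XLOC_039192, STRG.38744 and XP_027040457), an RNA-binding regulator of germ and stem cells, followed at 1.87, with 1.47, -0.20 and -0.91. A Frizzled receptor came next at 1.89, with 1.95, -0.55 and -0.43. These distances describe 3 values per trio and carry no test.

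Since Notum acts on Wnt proteins, the Wnt pathway genes of the study's lists were described beside the pectin acetylesterase genes. The list held 63 genes, drawn by the study largely on these libraries, so its direction is not independent evidence. In Clytia 7 of 18 tested genes were called aboral and 11 oral, with a median log2 fold change of -1.80 against -0.01 for all genes tested. In Astroides 5 of 22 were called aboral and 16 oral, with a median of -2.06. In Pocillopora 3 of 22 were called aboral and 15 oral, with a median of -2.40. Medians of all genes tested were within 0.03 of 0. The 5 aboral calls of Astroides were 3 when either aboral or either oral library was left out, and the Pocillopora calls were 0 aboral and 0 oral by edgeR without the colony in the fit, against 3 and 15 at an unadjusted p under 0.05 and 4 and 15 by DESeq2 with it.

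The ligands lay mostly on the oral side, as did PAE-1. All 8 Wnt ligands of Clytia were called oral, as were 11 of the 12 tested in Astroides and 10 of the 11 in Pocillopora. The exceptions were STRG.10912 of Astroides and XP_027036390 of Pocillopora, both in the study's aboral lists. STRG.10912 was called aboral, at 6.25 CPM in aboral and 0.803 CPM in oral ends (log2 fold change 2.98, edgeR adjusted p = 0.00286). XP_027036390 did not pass, at 13.7 CPM in aboral and 2.29 CPM in oral ends (3.14, edgeR adjusted p = 0.059). Its aboral and oral levels were 5.88 and 0.0494 CPM in colony C3, and 21.5 and 4.52 CPM in colony C5. Besides the complete trios, 1 ligand per species was picked by its mean CPM, which depends on gene length as well as on expression, so that the pick is no ranking of expression. In Clytia it was XLOC_001931, at 113 CPM in aboral and 667 CPM in oral ends (edgeR log2 fold change -2.52, adjusted p = 2.38e-07). In Astroides it was STRG.11669, at 174 CPM in aboral and 511 CPM in oral ends (-1.52, edgeR adjusted p = 0.00163), and in Pocillopora XP_027043512, at 44.6 CPM in aboral and 217 CPM in oral ends (-2.25, edgeR adjusted p = 0.0178). Within trios, XLOC_001931 had the coral orthologs STRG.9929 at -5.53 ± 0.49 and XP_027043371 at -4.94 ± 0.50 (SE), which rest on few aboral reads (0.167 and 0.147 CPM), and STRG.11669 had the orthologs XLOC_031686 at -5.04 and XP_027050567 at -0.90. All of these passed the edgeR test.

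The receptors did not share 1 pattern. The Frizzled trio XLOC_039886, STRG.44114 and XP_027048131 was called aboral in all 3 species, at 6.08, 2.77 and 2.98 on the log2 scale, where the value of STRG.44114 rests on few oral reads (0.214 CPM). The Frizzled trio XLOC_010791, STRG.44010 and XP_027044093 was called aboral in Clytia, at 275 CPM in aboral and 73.3 CPM in oral ends (log2 fold change 1.95, edgeR adjusted p = 9.89e-07). Its coral genes had values of -0.55 in Astroides (edgeR adjusted p = 0.0564) and -0.43 in Pocillopora (edgeR adjusted p = 0.0981), the same signs as PAE-2, but neither passed the test.

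Inhibitors of the pathway were found on both sides. The gene with DIX and RGS domains, a combination known from the intracellular inhibitor Axin, was called oral in all 3 species, at -1.72 for XLOC_011804, -1.16 for STRG.31478 and -1.45 for XP_027043174. The WIF domain gene, of a domain that binds Wnt proteins in vertebrates, was also called oral, at -5.44 for XLOC_044794, -1.86 for STRG.36865 and -2.46 for XP_027051823. The ZNRF-3 ectodomain gene was at 25.3 CPM in aboral and 57.3 CPM in oral ends for XLOC_036077, 10.1 and 55.5 CPM for STRG.17647, and 12.6 and 76.6 CPM for XP_027042554, and was called oral in all 3 species, at -1.13, -2.42 and -2.61.

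The Dickkopf trio, of secreted inhibitors that bind the Wnt co-receptor in vertebrates, was called aboral in all 3 species. Its genes were at 10.6 CPM in aboral and 0.500 CPM in oral ends for XLOC_006543, 25.5 and 0.105 CPM for STRG.12234, and 24.4 and 0.0478 CPM for XP_027048253. Another Dickkopf gene of each coral, outside this trio, was called oral, from few aboral reads. STRG.17709 of Astroides was at 0.612 CPM in aboral and 52.6 CPM in oral ends (log2 fold change -6.38, edgeR adjusted p = 0.000111). XP_027046532 of Pocillopora was at 0.375 and 7.54 CPM (-4.28, edgeR adjusted p = 0.0111). All 4 secreted genes with an Fz domain, the Wnt-binding domain of Frizzled, were called aboral in Clytia. In Astroides 2 of 3 were called aboral and 1 oral, and in Pocillopora 1 of 4 was called aboral and 1 oral. Among the inhibitors that formed a complete trio, each lay on 1 side in all 3 species.

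**Figure D4:**
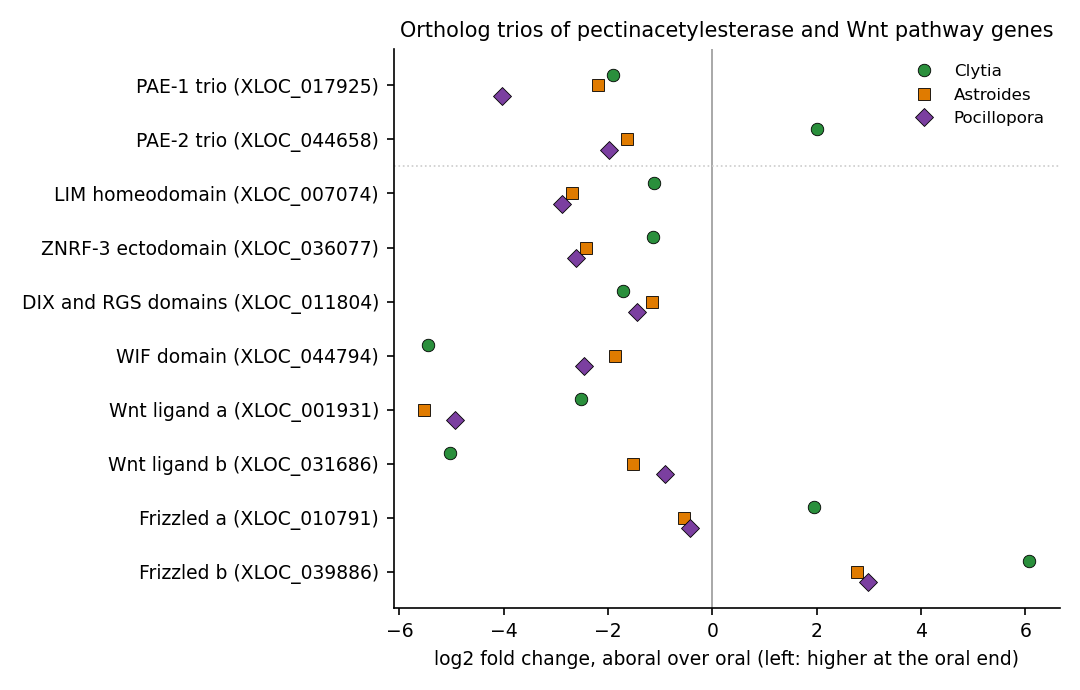
Aboral over oral log2 fold change of both pectin acetylesterase trios (above the dotted line), of the LIM homeodomain trio nearest to PAE-1 and of Wnt pathway trios, with 1 point per species and the Clytia identifier in brackets. The Dickkopf trio, called aboral in every species, is left out because its oral counts were near 0. Wnt ligand a and Frizzled b are kept, although they too hold coral genes with few reads at 1 end. Points left of the line at 0 are higher at the oral end, such as PAE-1 at -1.90, -2.20 and -4.03.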

How the data were processed

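The authors counted paired-end DNBseq reads per gene model with STAR, and deposited the raw counts with 1 file for each library. The strand setting was not given in the sources used here, and reads of Pocillopora acuta were mapped to the genome of the related Pocillopora damicornis, so counts of overlapping, near-identical or diverged genes are uncertain. No file identifier matched the reference gene table (0 matches), and domains and orthologs were taken by identifier from the study's annotation lists.

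Each species was analysed alone, using edgeR 4.0.16 under R 4.3.3. After filterByExpr, Clytia kept 15599 of 18755 gene models, Astroides 21254 of 28330 and Pocillopora 17164 of 19922. TMM factors were 0.955 to 1.06. Fits (glmQLFit, legacy mode) held all 6 libraries of Clytia or Astroides by group, and the 4 of Pocillopora by end and parent colony, with 3, 3 and 1 residual degrees of freedom. Tests were two-sided with Benjamini-Hochberg adjustment over all genes of a species and 0.05 as the threshold. Clytia libraries held 30129270 to 31043438 counts, those of Astroides 23146999 to 26980344, and those of Pocillopora 20256336 to 24838448.

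The study lists the pools of each end, and of uncut larvae for Clytia and Astroides, under the number of the biological replicate, so same-numbered libraries can be read as paired. The main fits of Clytia and Astroides hold no such block, which was run as an alternative, whereas that of Pocillopora holds the colony. Deviations of same-numbered libraries correlated across genes at 0.398, 0.260 and 0.285 in Clytia, 0.643, 0.212 and 0.1997 in Astroides and 0.828 in Pocillopora. The alternatives were the replicate block (for Pocillopora, no colony block), RLE size factors, DESeq2 1.42.0, no filter, the ends alone and each library left out.

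The genes, lists, tests and alternatives were chosen with earlier results of these data known. The genes named were the 6 genes, the complete Wnt pathway trios and the Wnt ligand with the highest mean CPM in each species. The last was a rule for naming only, as CPM also depends on gene length. Also named were the 3 trios nearest to each pectin acetylesterase trio among those of at least 10 CPM. The trios called at opposite ends in Clytia and both corals were named too, as were a forkhead and a T-box trio for the labels of the ends. XLOC_001468, STRG.10912, XP_027036390, STRG.17709 and XP_027046532 were named after their values were seen. The scripts were tested on simulated data.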

Additional observations from a re-analysis of the deposited data

Results flagged for a closer look

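The aboral minus oral log2 fold change of the PAE-2 trio pointed in opposite directions in Clytia and in the corals, with the aboral level higher in both replicate pairs of Clytia and the oral level higher in both pairs of each coral. The value in Clytia (2.01) minus that in Astroides (-1.63) was 3.64, and the value in Clytia minus that in Pocillopora (-1.99) was 4.0. The trio was chosen for this difference, which was not tested.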

How the results depend on the processing

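The aboral minus oral values of all 6 genes kept their direction under every alternative run, with extremes when single libraries were left out: -2.04 to -1.75 for XLOC_017925, 1.82 to 2.19 for XLOC_044658, -2.33 to -2.12 for STRG.16525, -1.77 to -1.54 for STRG.35390, -4.39 to -3.67 for XP_027051607 and -2.23 to -1.74 for XP_027054066. The uncut minus ends values stayed without a call in every alternative, with edgeR or DESeq2 adjusted p no lower than 0.0877 (STRG.16525). They also stayed positive, but the mean of log2 levels lies below the log2 of the mean for any gene whose ends differ. Against the log2 of the mean of the ends, the uncut level differed by -0.07, 0.03, -0.17 and 0.01 for XLOC_017925, STRG.16525, XLOC_044658 and STRG.35390. Nothing is therefore read from the positive sign. The colony differences had no call. With 1 library left out they rested on the other end alone. They were then -0.66 from oral and 0.06 from aboral ends for XP_027051607, and -0.10 and 0.38 for XP_027054066. Leaving out a Pocillopora library left no residual degrees of freedom, so these are values with no test. Counts of all genes moved more, and the cause was not tested. With the replicate number as a block, edgeR called 3546 oral genes in Clytia against 2304 without it, 343 against 161 higher and 99 against 25 lower in uncut larvae, and in Astroides 1312 against 738 aboral, 1299 against 747 oral, 165 against 44 higher and 35 against 3 lower in uncut larvae. In Clytia and Astroides the block changed no call of a pectin acetylesterase gene in the uncut comparison. DESeq2 called 49 genes lower in uncut Clytia, and 162 higher and 46 lower in uncut Astroides, where RLE factors gave 1 lower. Without 1 library, calls in Clytia were 1360 to 2157 oral, the lowest without aboral replicate 2, and 106 to 180 higher and 6 to 36 lower in uncut larvae. In Astroides they were 289 to 558 aboral, 231 to 566 oral, 7 to 32 higher and 0 to 2 lower in uncut larvae (350 to 725 lower at an unadjusted p under 0.05), and 3 to 5 Wnt pathway genes aboral. Without the replicate block of parent colonies, edgeR called 0 aboral genes (837 at an unadjusted p under 0.05) and 0 oral genes (750) in Pocillopora, against 656 and 725 with it, and 0 Wnt pathway genes aboral (3) or oral (15). There the values of XP_027051607 and XP_027054066 were -4.06 and -1.98, close to those with the block. Both genes were chosen by this contrast, so no call is read for them with or without the block. The precision of each uncut and colony value is limited by 2 libraries per group, as its interval shows.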
